A study of Mus musculus with 9 samples.

Results

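Nuclear genes for the mitochondrial respiratory chain, the mitochondrial ribosome and the protein import machinery were followed through 3 deposited comparisons of mouse cortex at embryonic day 12. Members were the genes whose names begin with Nduf, Uqcr, Cox and a digit, Atp5, Sdh, Mrpl, Mrps, Timm or Tomm. The rule found 29 genes among the 1030 genes listed in any of the tables, and 210 protein-coding genes of the GENCODE M21 annotation carry such names. A gene is called listed where its adjusted p in the authors' table was under 0.05. The groups were 3 conditional heterozygotes (cHet; Emx1 Cre/+, Zbtb7a fl/+), 3 conditional knockouts (cKO; Emx1 Cre/+, Zbtb7a fl/fl) and 3 wild types (WT; Emx1 Cre/+, Zbtb7a +/+), so all 9 embryos carried Cre at Emx1, a gene of dorsal telencephalic progenitors. Zbtb7a encodes a zinc finger transcription factor. Cells of the tissue that do not descend from Emx1-expressing progenitors, such as blood vessels, keep their floxed alleles. The cortices came from 2 litters, and the labels do not tie embryos to litters.

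Oxidative phosphorylation is carried out by 5 complexes of the inner mitochondrial membrane. Complexes I, III and IV pass electrons on towards oxygen and pump protons, complex II feeds in electrons from succinate, and complex V, the ATP synthase, uses the proton gradient to make ATP. Most subunits are encoded in the nucleus, made in the cytosol and brought in through the TOM complex of the outer membrane and the TIM complexes of the inner membrane. The remaining subunits are encoded by mitochondrial DNA and made by the mitochondrial ribosome, whose proteins are nuclear-encoded. In the developing cortex, dividing progenitors lean on glycolysis, and neurons rely more on respiration as they mature.

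All 29 listed members came from the comparison of cHet with cKO cortices, where 28 were lower and 1 was higher in cHet. The table of cHet against WT held no member among its 248 genes, and the table of cKO against WT held no member among its 4 genes. By the authors' deposited table the 28 lower members spanned log2 fold changes (cHet over cKO) of -1.04 to -0.55, with a median of -0.86. Tomm34 was the higher one. In this comparison 971 of the 13375 genes in the authors' adjustment were listed, which is 7.26% of them in either direction, 4.14% lower and 3.12% higher. Of the 210 annotated members, 13.8% were listed, 13.3% lower. The 2 shares have different bases, since the annotated members include genes that may not have entered the adjustment. In cHet against WT 1.6% of genes were listed, and in cKO against WT 0.0148%.

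Groups, complexes and ribosomal subunits were assigned by the prefix of the gene name. Members of the respiratory complexes made up 17 of the 29, all lower in cHet. They were 16.0% of the 106 annotated genes of that group. The mitochondrial ribosome had 8 of 78 genes listed, all lower, or 10.3%. The import group had 3 of 26 genes lower and 1 higher. The listed genes of each group are a selection by the authors' threshold, so their direction and median describe them and carry no test.

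**Figure D1:**
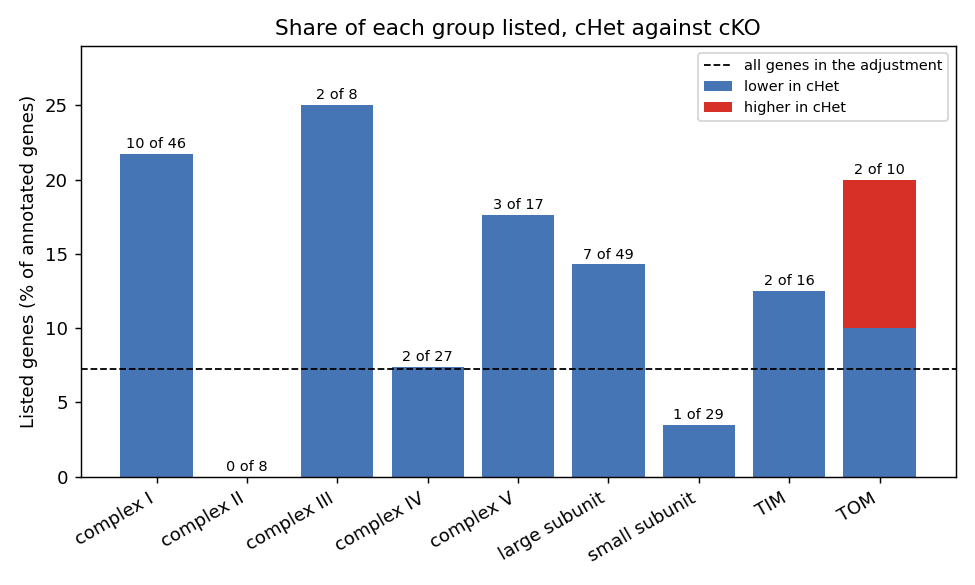
Bars give the share of annotated genes in each group that were listed in cHet against cKO (%), blue for lower and red for higher in cHet, with counts above; the dashed line marks the 7.26% of all adjusted genes that were listed. Complex I (10 of 46) and complex III (2 of 8) stand above the line, complex IV (2 of 27) lies next to it, and the small ribosomal subunit (1 of 29) lies below it. Complex II is drawn at 0 of 8, without Sdhaf3, which was listed under the older name Acn9.

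The promoters of this gene family are known for sites of the factors NRF1, YY1 and GABPA, an ETS factor, which coordinate many nuclear genes of respiration. Promoters from RefSeq (GRCm38.p6, from 250 bases before to 50 bases after each start) were searched on both strands for GCGCNTGCG (NRF1), AAGATGGCG (YY1) and CCGGAAG (the ETS core), each counted on its own. Of the 29 listed members 26 had a promoter in the table, and 17 of these, or 65.4%, held at least 1 of the motifs. The share was 59.6% of 151 members that were not listed, 35.9% of 351 other protein-coding genes lower in cHet, 33.0% of 333 other protein-coding genes higher in cHet and 16.6% of all 27025 genes in the table, non-coding ones included. NRF1 letters were in 30.8% of the listed members, 27.8% of the members not listed and 7.12% of all genes. The ETS core was in 38.5%, 34.4% and 9.93% of these sets, and YY1 letters in 7.69%, 10.6% and 1.64%. The shares of listed and unlisted members were not tested against each other. A match is a description of letters and not a bound site.

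The following stretches are the 150 bases before the RefSeq start of 3 listed members, 1 of each group, in which an NRF1 match lies and which hardly touch annotated exons. They are examples of the NRF1 letters found in 30.8% of the listed members, chosen for a match before the start. In Uqcr10, Mrpl14 and Ndufaf5 the NRF1 match lies after the start. The stretches are written in the direction of transcription, with the matches in capitals, including matches on the other strand.
Ndufaf4 (chr4:24897933-24898082, plus strand): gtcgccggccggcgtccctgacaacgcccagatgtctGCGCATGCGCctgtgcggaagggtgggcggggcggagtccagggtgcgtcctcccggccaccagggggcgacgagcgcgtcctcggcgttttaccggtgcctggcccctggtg
Mrpl17 (chr7:105811088-105811237, minus strand): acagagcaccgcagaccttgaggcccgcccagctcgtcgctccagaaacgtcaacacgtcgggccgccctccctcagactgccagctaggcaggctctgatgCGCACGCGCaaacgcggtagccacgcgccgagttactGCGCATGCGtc
Tomm20 (chr8:126945922-126946071, minus strand): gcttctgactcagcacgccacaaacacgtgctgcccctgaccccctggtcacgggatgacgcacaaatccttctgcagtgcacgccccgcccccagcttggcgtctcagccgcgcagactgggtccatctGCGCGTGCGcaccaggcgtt
Matches begin 113 and 112 bases before the start in Ndufaf4, where both strands match in overlap, 48 and 11 bases before it in Mrpl17 and 20 bases before it in Tomm20.

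Complex I, the NADH dehydrogenase, gave 10 of the 17 respiratory members. The lowest value among these belonged to Ndufs4, an accessory subunit of the NADH-oxidising arm whose loss in mice is used as a model of Leigh syndrome. The authors' deposited table put it at a log2 fold change of -1.03 (SE 0.29), a ratio of 0.490 of cHet over cKO, and its adjusted p was 0.0220 (the authors' DESeq2 test, Benjamini-Hochberg adjustment). Ndufs4 lies on chromosome 13 from 114287795 to 114388258 (mm10). Iron-sulphur subunits that carry electrons through the same arm were also listed. By the authors' deposited table Ndufv2 had -0.86 (SE 0.28) and Ndufs8 -0.58 (SE 0.18). Ndufa7, an accessory subunit of the peripheral arm, had -0.99 (SE 0.31) by that same table of the authors.

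The membrane arm of complex I, which pumps protons, was represented by accessory subunits. Log2 values in the authors' deposited table were -0.93 (SE 0.30) for Ndufb8, -0.85 (SE 0.26) for Ndufb3, -0.83 (SE 0.28) for Ndufb7 and -0.68 (SE 0.22) for Ndufc2. Assembly factors of complex I are proteins that build the complex without staying in it, and 2 of 8 annotated ones were listed. Ndufaf5, which modifies a core subunit, stood in the authors' deposited table at -0.88 (SE 0.28) and Ndufaf4 at -0.65 (SE 0.21). By adjusted p, Ndufs4 was followed by Ndufb3 at 0.0310 and Ndufs8 at 0.0331 in the authors' DESeq2 test. In all, 8 of 38 annotated genes with Nduf names other than assembly factors were listed, all lower, beside 4.14% of all genes lower. The other 30 of these genes and 6 assembly factors were not listed.

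Complex IV, cytochrome c oxidase, had 2 of 27 genes listed, or 7.41%, close to the 7.26% of all genes. Both listed genes help to build the oxidase, and its 17 structural subunits with Cox names were not listed, a count too small to set against that share. Cox19, a small protein of the intermembrane space that takes part in copper supply to the oxidase, stood in the authors' deposited table at a log2 value of -0.90 (SE 0.23). Its adjusted p, 0.0109 by the authors' DESeq2 test, was the smallest of all 29 members, and its statistic ranked 139th among the 971 listed genes. Cox14, which acts on the newly made first subunit of the oxidase, had -0.79 (SE 0.26) by the authors' deposited table, with an adjusted p of 0.0433. Whether complexes, or subunits and assembly factors, differ in the share of listed genes was not tested.

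Complex III, which passes electrons from ubiquinol to cytochrome c, had 2 of 8 genes listed, both small accessory subunits. The authors' deposited table put Uqcrq at a log2 value of -0.95 (SE 0.30) and Uqcr10 at -0.92 (SE 0.31). In complex V, 3 of 17 genes were listed, and all belong to the stalk and membrane parts of the enzyme. Log2 values by the authors' deposited table were -0.91 (SE 0.29) for Atp5j2, subunit f, -0.79 (SE 0.27) for Atp5h, subunit d of the peripheral stalk, and -0.69 (SE 0.23) for Atp5f1, subunit b of that stalk. Atp5a1 and Atp5b, genes of the catalytic part of the enzyme, were not listed.

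Complex II, succinate dehydrogenase, had none of its 8 annotated genes listed under a name of the rule. Its assembly factor Sdhaf3 stands in the authors' deposited table under the older name Acn9, which the rule does not match, at a log2 value of -0.74 (SE 0.25) with an adjusted p of 0.0478. It is not counted among the 29 and stands among the 181 annotated members counted as not listed.

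In the mitochondrial ribosome, 7 of 49 genes with large subunit names (Mrpl) were listed, or 14.3%. Of 29 with small subunit names (Mrps) 1 was listed, or 3.45%, beside 7.26% of all genes. These shares rest on few genes, and their difference was not tested. Mrpl57 had the smallest adjusted p of this group, 0.0252 by the authors' DESeq2 test, and the authors' deposited table put it at a log2 value of -0.91 (SE 0.27). Mrpl14 had the lowest value of all 29 members, by the authors' deposited table -1.04 (SE 0.34), a ratio of 0.487 of cHet over cKO. Mrpl28 had -0.86 (SE 0.28) and Mrpl41 -0.82 (SE 0.27) by the authors' deposited table, with DESeq2 adjusted p of 0.0405 and 0.0407. The other large subunit genes in the authors' deposited table were Mrpl54 at -0.71 (SE 0.23), Mrpl48 at -0.62 (SE 0.21) and Mrpl17 at -0.55 (SE 0.18). Mrps33 was the listed gene of the small subunit, by the authors' deposited table at -0.90 (SE 0.30). Mrpl54 lies on chromosome 10 from 81264713 to 81266934, which is 0.112 Mb from Zbtb7a.

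Import genes moved in both directions. The authors' deposited table put Tomm20, the outer membrane receptor for presequences, at a log2 value of -0.90 (SE 0.30). Timm10, a small chaperone that carries membrane proteins across the intermembrane space, had -0.93 (SE 0.30) by the authors' deposited table. Timm17b, a component of the inner membrane translocase for presequence proteins that is encoded on chromosome X, had -0.58 (SE 0.19) by the authors' deposited table. Tomm34 is a cytosolic co-chaperone of mitochondrial precursors and, despite its name, no subunit of the TOM complex. It was higher in cHet, by the authors' deposited table at 0.53 (SE 0.15), a ratio of 1.45, with a DESeq2 adjusted p of 0.0187. The 3 listed subunits of the import complexes were all lower, and the member that was higher was the co-chaperone.

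**Figure D2:**
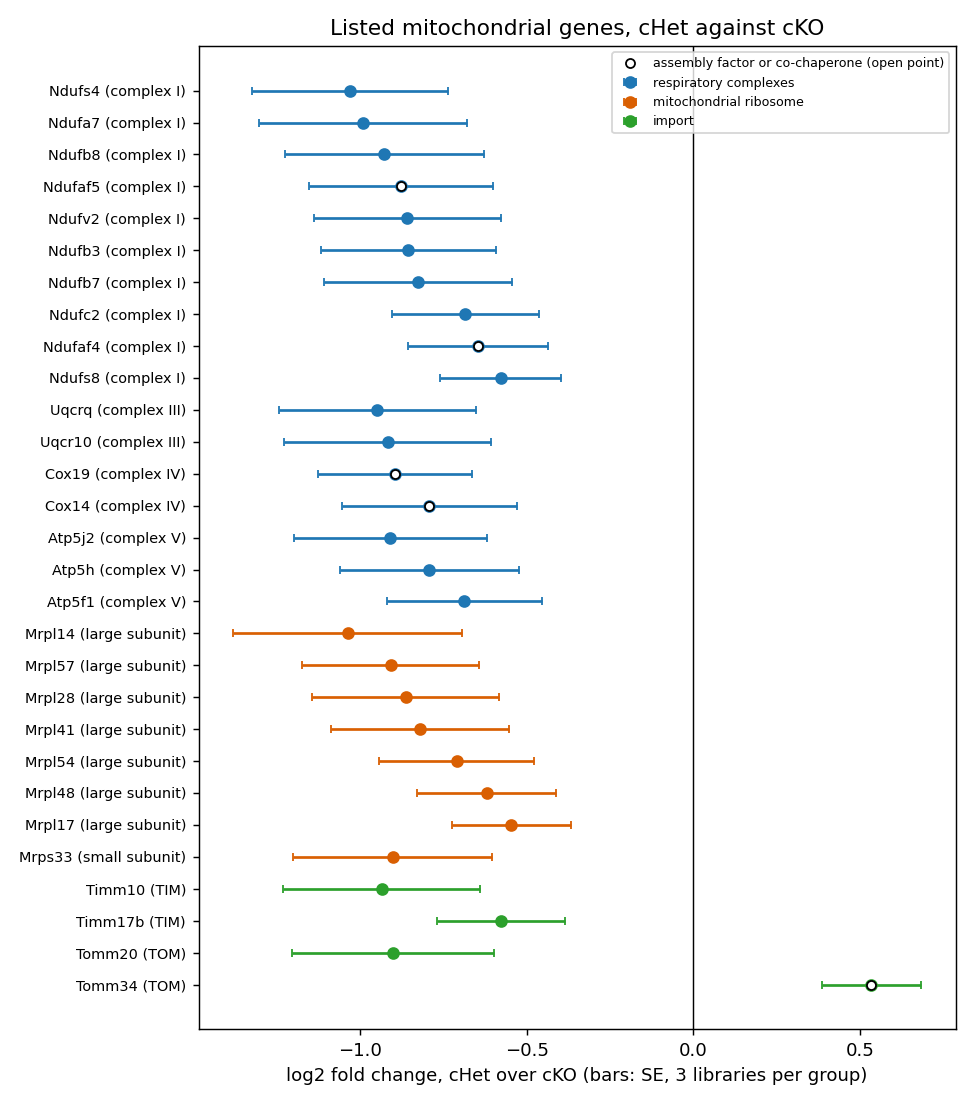
Points give the log2 fold change of cHet over cKO for each of the 29 listed members from the authors' deposited table, bars the SE from 3 libraries per group; colours mark the groups, and open points mark assembly factors and the co-chaperone Tomm34. Every gene except Tomm34 lies between -1.04 and -0.55, and the bars of most of them overlap.

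The SD of the log2 fold changes of the 28 lower members was 0.14, and the median SE over the 29 members was 0.27, so their order by size is not resolved. By group, the lower members had medians of -0.86 for the respiratory complexes, -0.84 for the mitochondrial ribosome and -0.90 for import. The 454 other protein-coding genes lower in cHet had a median of -0.79 and a median SE of 0.23. All of these genes passed the same threshold on the fold change divided by its SE, which narrows the range of sizes and makes a gene with a larger SE need a larger change, so likeness of these values is no finding.

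Most members lay close to the threshold of the table, and Cox19 and Tomm34 stood furthest inside it. The adjusted p of the 29 ran from 0.0109 to 0.0489 in the authors' DESeq2 test, so no member passed at 0.01, while 133 of the 971 listed genes did, which is 13.7% of those listed and 0.994% of all in the adjustment. The absolute statistic, which is the fold change divided by its SE, ran from 2.93 for Ndufb7 to 3.86 for Cox19 in the authors' deposited table. The next gene would have been listed at 2.91, so Ndufb7 stood just inside the threshold. Members just outside it were not analysed here.

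The threshold also bears on the tables that hold no member. For 1 more gene to be listed, a statistic of 3.35 was needed in cHet against WT and one of 4.43 in cKO against WT. These sizes would be lower if several genes entered together. For the 190 genes listed in both cHet tables, the SE against WT was between 0.988 and 1.01 times that against cKO. For cKO against WT this could be checked on 3 genes, whose SEs were 0.988 to 1.00 times those in cHet against cKO, and the same is assumed for the members. With its SE from cHet against cKO, each of the 29 members, entering alone, would have needed an absolute log2 change between 0.50 and 1.15 in cHet against WT. The median was 0.90. In cKO against WT the range was 0.66 to 1.53, with a median of 1.19. Only Cox19, Tomm34, Ndufs4 and Mrpl57 had a change in cHet against cKO that reached the size needed against WT. Those were 4 of the 210 annotated members. In the cHet against cKO adjustment 2.84% of all genes reached that size, a larger share, though on another base. No member reached the size needed in cKO against WT. The sizes needed against WT were 0.78 for Cox19, 0.50 for Tomm34, 0.99 for Ndufs4 and 0.89 for Mrpl57. The absence of members from the tables against WT therefore does not show that cHet or cKO cortices had WT levels, and whether the change against cKO differed from that against WT was not tested.

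**Figure D3:**
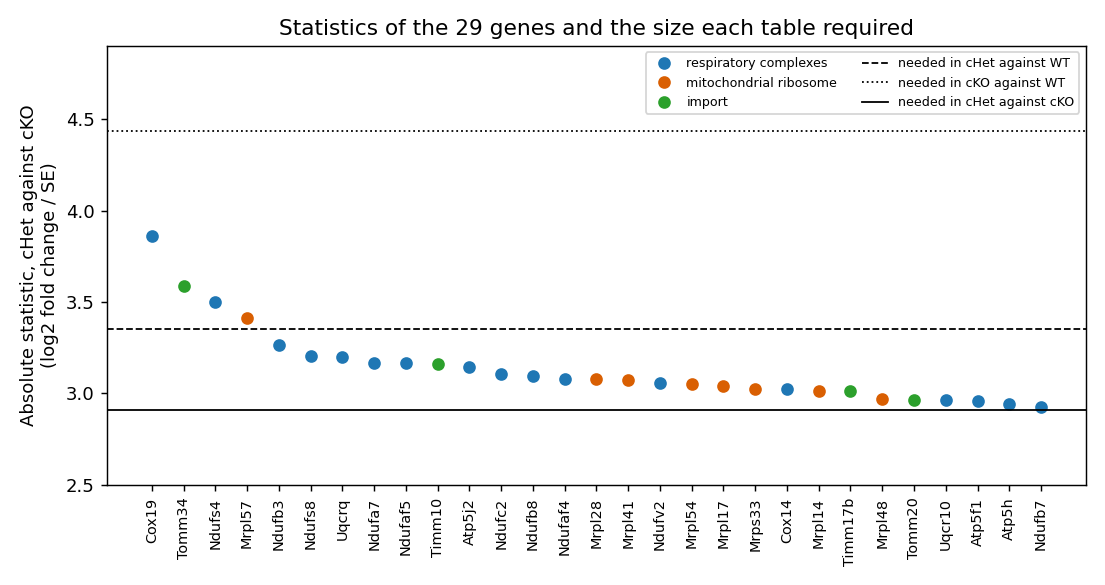
Points give the absolute statistic (log2 fold change divided by SE, no unit) of the 29 members in cHet against cKO, ordered by size and coloured by group; lines mark the size needed for 1 more gene in each table, 2.91, 3.35 and 4.43. Of the 29 members, 4 lie above the line of cHet against WT and none above that of cKO against WT.

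Mitochondrial genes outside the name rule were read from fixed lists. Among 40 further genes of the respiratory chain and its assembly, 4 were listed in cHet against cKO, or 10%, and all were lower. Apart from the cytosolic ribosome, shares in these lists were near the 7.26% of all genes or rest on few genes. By the authors' deposited table Coa3 was at a log2 value of -0.92 (SE 0.28) and Pet100 at -1.10 (SE 0.37), and both help to assemble complex IV. Among 23 other import genes the authors' deposited table listed Grpel1, a co-chaperone of the import motor, lower at -0.76 (SE 0.25) and Hspd1, the matrix chaperonin, higher at 0.44 (SE 0.15). None of 17 genes of the TCA cycle and none of 80 cytosolic ribosomal protein genes was listed. The cytosolic ribosomal share, 0%, was below the 7.26% of all genes, a difference that was not tested. Of 26 mitochondrial translation genes 1 was listed, Mtrf1, a release factor relative, by the authors' deposited table at -0.83 (SE 0.24). These zero counts rest on the authors' DESeq2 threshold, and counts at an unadjusted p were not analysed here.

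Regulators of mitochondrial biogenesis had 2 of 14 genes listed in each cHet comparison, both higher in cHet, where 7.26% of all genes were listed against cKO and 1.6% against WT. Pprc1, a coactivator related to PGC-1alpha that acts with NRF1, stood in the authors' deposited tables at log2 values of 0.51 (SE 0.12) against cKO and 0.52 (SE 0.12) against WT. Mycn, a MYC family factor of neural progenitors, had 0.50 (SE 0.11) against cKO by the authors' deposited table. A count of 2 genes says little of the list, and the 2 comparisons share the cHet libraries. Of the mitochondrially encoded genes 4 of 13 were listed in cHet against cKO, all lower. The complex I subunit gene mt-Nd5 stood in the authors' deposited tables at -1.40 (SE 0.30) against cKO and -1.44 (SE 0.30) against WT.

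Exonic length moved with direction in cHet against cKO. The 28 lower members had a median merged exonic length of 1829.5 bp, the 454 other protein-coding genes lower in cHet 3145 bp and the 415 other genes higher in cHet 5589 bp. The 181 members that were not listed had a median of 1928 bp, so listed members were of about the length usual for the family. Up to 1000 bp, 8 of 8 members and all 24 other listed genes were lower. Between 1000 and 2000 bp, 7 of 7 members and 92.8% of 111 other listed genes were lower. Between 2000 and 4000 bp, 8 of 9 members and 61.7% of 248 other listed genes were lower, and between 4000 and 8000 bp, 4 of 4 members and 35.0% of 354 others. Above 8000 bp, the 1 member and 37.9% of 132 others were lower. The part of length in the members' direction was not tested.

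**Figure D4:**
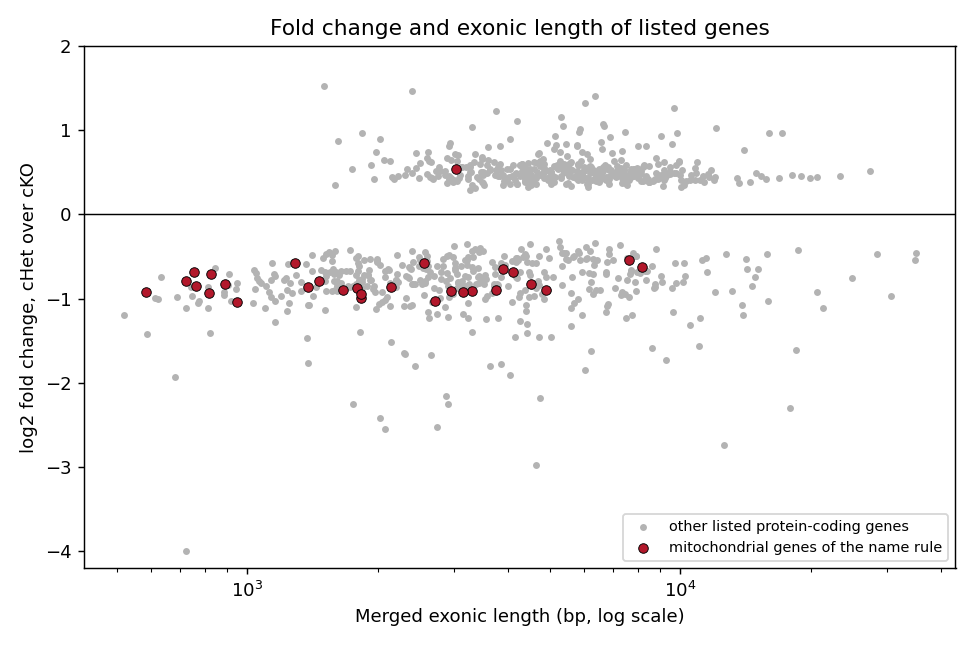
Each point is a protein-coding gene listed in cHet against cKO, with merged exonic length (bp, log scale) on the x axis and the log2 fold change of cHet over cKO on the y axis. Red points are the 29 members. Left out are 8 other genes below -4, namely Dlx1, Dlx2, Dlx5, Gsx2, Sp9, Gad2, Grik3 and the Y-linked Eif2s3y. Nearly all listed genes shorter than 2000 bp, members and others alike, lie below 0.

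Markers of cell types were also listed in cHet against cKO, where 7.26% of all genes were listed. Of 15 neuron markers 6 were lower in cHet, led by Nsg2, in the authors' deposited table at -1.46 (SE 0.19), and of 12 radial glia markers 4 were higher and 1 lower. Endothelial and pericyte markers had 5 of 12 higher, among them Kdr, by the authors' deposited table at 0.93 (SE 0.24), and mesenchyme markers 4 of 10 higher. Of 8 erythroid and 9 macrophage markers 1 each was listed, both lower, counts too small to set against that 7.26%. Outside these lists, Dlx1, Dlx2, Dlx5, Gsx2, Sp9, Gad2 and Grik3 were far lower in cHet than in cKO. The authors' deposited table put them at log2 values from -5.55 (Gsx2) to -4.01 (Grik3), and they are named for the size of their change. Of 5 sex-linked genes 1 was listed in cHet against cKO and 1 in cHet against WT, in both the Y-linked Eif2s3y. Eif2s3y was far lower in cHet, and the authors' deposited tables put it at log2 values of -23.04 (SE 3.91) against cKO and -24.80 (SE 3.91) against WT. Its SEs were far above the highest SE of the members, 0.34, so its values give a direction rather than a size. The labels do not give the sex of the embryos, so unequal sex ratios of cHet and the other groups cannot be told apart from genotype. The part of these in the members' change was not tested, and in bulk tissue fewer cells of a type and less RNA per cell cannot be told apart. Levels in each library were not used here, the tissue label was therefore not set against marker levels, and the targeted gene Zbtb7a was listed in none of the tables.

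Some members share sequence with other genes, which could split or add reads. At 95% identity over at least 300 bp, 6 of the 29 matched another annotated gene. Tomm20 matched 4 genes, Atp5h 3, Mrpl48 2, and Atp5f1, Mrpl41 and Mrps33 matched 1 each. Processed pseudogenes related to the family were listed too, with the same sign. Gm14494, a copy of Tomm20 at 99.5% identity over 435 bp, stood in the authors' deposited table of cHet against cKO at a log2 value of -1.40 (SE 0.41). The authors' deposited table put Gm10250, a copy of Atp5h at 99.0% over 485 bp, at -1.19 (SE 0.30) and Gm10221, a copy of the unlisted Atp5l over 309 bp, at -1.12 (SE 0.30). BC002163, a copy of the unlisted complex I gene Ndufs5 at 99.4% over 319 bp, stood in the authors' deposited tables at -2.89 (SE 0.46) for cHet over cKO and 2.26 (SE 0.46) for cKO over WT. All 50 listed pseudogenes were lower in cHet than in cKO. Exons of Atp5f1, Mrpl14, Mrpl48 and Timm17b overlapped genes on the opposite strand, the largest overlap being 708 bp between Mrpl48 and Rab6a. Exons of Ndufb8 shared 134 bp with Gm20538 on the same strand. Strandedness is not given in the sources used here, so values of these genes are uncertain to that extent.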

How the data were processed

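Polyadenylated RNA of 9 embryonic day 12 cortices, 3 per group, was sequenced. Per the submitters' processing notes, the authors used cutadapt, featureCounts, mm10 and DESeq2; the sources used here do not give the aligner, annotation or strandedness. The deposited tables hold log2 fold changes with SEs, a score equal to their quotient in every gene, and adjusted p-values, all under 0.05. The base of the log was read as 2 because the authors' DESeq2 reports that base. The labels name separate animals. Depth is unknown, since values per library were not analysed here.

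The deposited adjusted p-values equalled Benjamini-Hochberg values over 13375 genes (cHet against cKO), 15465 (cHet against WT) and 26976 (cKO against WT), with p from the normal distribution; the step was tested on simulated data. All identifiers were in GENCODE M21. Members and lists were chosen with earlier results of these data known. Every listed member is named, and of other lists the listed genes with the smallest adjusted p; Coa3, Pet100 and pseudogene copies are examples, the copies chosen after their values were seen. Copies were found with BLAST 2.17.0 and overlaps with bedtools 2.31.1, using Python 3.11.15 and pandas 2.3.3. Alternatives were a stricter threshold, a minimum fold change, 1 common statistic, and narrower or wider member lists.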

Additional observations from a re-analysis of the deposited data

How the results depend on the processing

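At an adjusted p under 0.01, the count of listed members in cHet against cKO was 0, and so were the counts of lower members for the respiratory complexes, the mitochondrial ribosome and import (0, 0 and 0), with no median to give. The smallest statistic listed for cHet against WT, 3.36, was also used as a common minimum. It left 4 of the 210 annotated members, with 2 respiratory and 1 ribosomal member lower and 0 lower import members. In the cHet against cKO adjustment 2.84% of all genes reached this minimum, a larger share, though on another base. Without members that have a near-identical copy, 5 ribosomal members were lower in place of 8. The settings other than these first 2 left 23 to 35 members, and the median log2 fold change stayed between -0.90 and -0.86 wherever it could be computed. The wider list held 33 lower and 2 higher, and did not take in Sdhaf3 under its older name Acn9. With a minimum absolute log2 fold change of 0.5 all 29 stayed listed. The tables against WT had 0 members under every setting. Only the wider list could have changed this, since the other settings can only remove genes. No paired analysis was possible because the tables hold comparisons and no values per library, and for the same reason no library could be left out.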

Other observations

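Genes of other basic cell functions can be set beside the mitochondrial members in cHet against cKO. Of 31 proteasome genes 2 were listed, both lower, and the authors' deposited table put Psma6 at a log2 value of -0.89 (SE 0.28) and Psma7 at -0.81 (SE 0.28), subunits of the catalytic core particle. Genes of mitochondrial DNA upkeep and transcription had 1 of 13 listed, the helicase gene Peo1 (Twnk), by the authors' deposited table at 0.44 (SE 0.15), and its transcripts share 361 bp with those of Mrpl43 on the opposite strand. Glycolysis had 4 of 22 genes higher and 1 lower in cHet than in cKO, so its listed genes were mostly opposite in direction to the respiratory members. The share of all genes listed in this comparison was 7.26%, and no difference between these lists was tested.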
